A study of Mus musculus with 2 samples.

Results

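Qsox1 was followed across the myeloid and other immune cells of mouse tumours in 2 single-cell libraries, 1 from ovariectomised C57BL6\J mice given E2 (the usual abbreviation of estradiol) and 1 from ovariectomised C57BL6\J mice given placebo. It is 1 gene of the 47730 features counted. The gene was picked from these same libraries because it was lower in the E2 library in every macrophage group and in type 2 conventional dendritic cells (cDC2), so those E2 to placebo ratios describe how it was chosen and are not findings. Both libraries held sorted live CD45+ cells from dissociated tumours, sequenced with 10x 3′ chemistry, which counts RNA molecules as UMIs (unique molecular identifiers). The labels used here give no tumour type, no E2 dose or duration, no age and no number of mice, and ovariectomy is shared by both groups, so no ovary-intact animals are compared. With 1 library per group there is no replicate and no test. Intervals are 95% exact intervals that cover counting error only, and what separates E2 from placebo cannot be told apart from what separates 2 libraries.

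Qsox1 encodes quiescin sulfhydryl oxidase 1, an enzyme of the Golgi and secretory pathway that is also secreted. It forms disulfide bonds in client proteins and passes the electrons to oxygen, giving hydrogen peroxide. It has been linked to the assembly of laminin in the matrix around fibroblasts, and it acts beside the endoplasmic reticulum oxidases of the Ero1 family, which recharge protein disulfide isomerases.

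The gene (ENSMUSG00000033684) lies at chr1:155776029-155812889 on the minus strand of GRCm38, with 3 protein-coding transcripts among 8, which have 12 to 13 exons each. Of the annotated genes, Gm37539 overlaps it on the plus strand, and Gm37539 had 0 UMIs in the E2 library and 0 in the placebo library. The 250 bases before the RefSeq start, chr1:155812900-155813149 in GRCm38.p6, are shown because estrogen receptors can bind DNA at an estrogen response element. Capitals mark GC boxes (GGGCGG) and the hypoxia response core (ACGTG or GCGTG, here read on the other strand).

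Qsox1 promoter, 5′ to 3′ on the gene's strand: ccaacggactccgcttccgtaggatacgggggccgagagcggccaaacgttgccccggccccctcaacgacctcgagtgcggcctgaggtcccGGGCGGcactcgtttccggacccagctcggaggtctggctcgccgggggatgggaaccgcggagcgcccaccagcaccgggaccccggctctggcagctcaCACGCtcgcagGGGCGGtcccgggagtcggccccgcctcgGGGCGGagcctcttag

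Both strands were searched. The window held 3 GC boxes, which 32.7% of the 32851 RefSeq promoter windows of the same length also held at least once. It held 1 hypoxia response core, a motif present in 38.6% of windows. Neither the estrogen response element (GGTCA, any 3 bases, TGACC) nor the AP-1 element TGANTCA was matched, and these letters occur in 0.0639% and 6.75% of windows. The GC content was 73.6%, against a median of 52.4%. No measurement here bears on factor binding at these letters.

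After removal of barcodes with under 200 genes and of predicted doublets, 5497 cells of the E2 library and 3392 of the placebo library were kept, with a median of 7885 UMIs per cell in E2 and 5089 in placebo. A CD45 (Ptprc) UMI was seen in 89.3% of E2 cells and 87.6% of placebo cells, and non-immune marker gates held 110 E2 cells and 30 placebo cells. The libraries shared 95 barcodes, of which 87 E2 and 86 placebo cells were kept. Cells were assigned to a lineage when they showed at least 3 markers of its list and a larger share of that list than of any other. Monocyte and macrophage subsets also needed at least 3 markers, with the share standardised over monocytes and macrophages. T cells were split without ranking shares. Regulatory T cells needed at least 3 markers, but CD8 T cells only a UMI of Cd8a or Cd8b1 and CD4 T cells only a UMI of Cd4 or Cd40lg. Qsox1 UMIs were not used in the assignment, although the limits of the gates were set with Qsox1 levels already seen. Levels are given as CPM, the Qsox1 UMIs per 1000000 UMIs of all cells of a type in a library. They compare libraries and cell types, and levels of different genes are not ranked against each other.

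Over whole libraries, Qsox1 stood at 24.9 CPM in E2 cells and 51.5 CPM in placebo cells, from 1216 and 1200 UMIs. A Qsox1 UMI was found in 17.6% of E2 cells and 24.2% of placebo cells. In the E2 library, monocytes and macrophages gave 29.8% of the Qsox1 UMIs from 48.6% of all UMIs. In the placebo library they gave 39.3% of the Qsox1 UMIs from 39.6% of all UMIs.

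**Figure D1:**
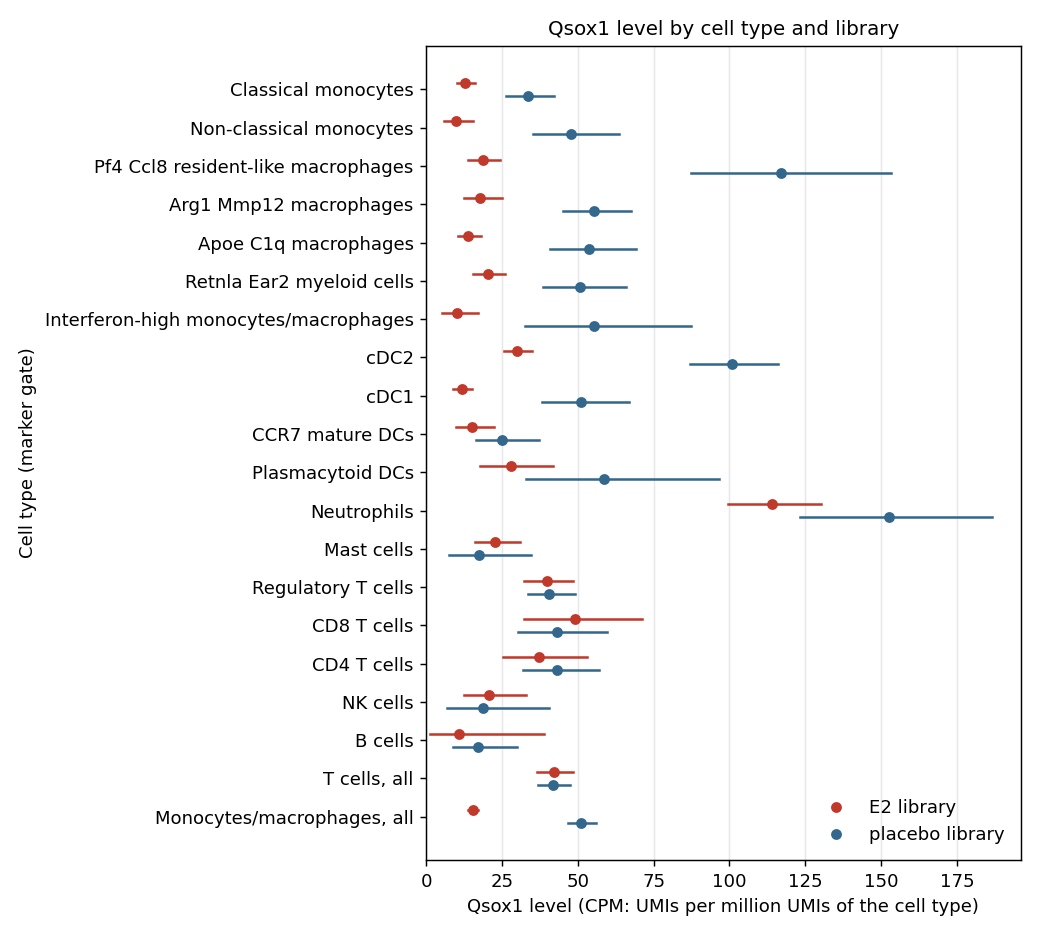
Qsox1 level (CPM, x axis) in each cell type from marker gates (y axis), E2 library above placebo library, with exact Poisson 95% intervals. Neutrophils had the highest level plotted in each library, at 114 CPM in E2 and 153 CPM in placebo (not in placebo once cells with under 1000 genes are left out), and the monocyte, macrophage, cDC2 and cDC1 levels of the E2 library lay below those of the placebo library without overlap.

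The order of cell types within a library was not itself used to pick the gene, but the places of macrophages and cDC2 in the 2 orders differ in the direction of that choice. In the E2 library neutrophils led with 114 CPM (interval 99.4 to 130.1) among the 16 types that had 50 cells or more in both libraries. CD8 T cells followed at 49.0 CPM, regulatory T cells at 39.8 CPM, CD4 T cells at 37.3 CPM and cDC2 at 29.9 CPM. The bottom of the E2 order was held by cDC1 at 11.7 CPM, B cells at 10.7 CPM and non-classical monocytes at 9.80 CPM. Only the step between neutrophils and CD8 T cells separated neighbours with intervals that did not overlap, so the other 14 steps of that order are within counting error.

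The placebo order was a different one. Neutrophils again came first, with 153 CPM (123 to 187), followed by resident-like macrophages at 117 CPM (87.3 to 153) and cDC2 at 101 CPM (87.1 to 116). Arg1 Mmp12 macrophages came next at 55.5 CPM, and the step from cDC2 to them was the only one without overlap. NK cells at 18.6 CPM, mast cells at 17.5 CPM and B cells at 17.2 CPM were at the bottom. The highest level was 11.6 times the lowest in the E2 library and 8.86 times the lowest in the placebo library.

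Set against T cells of the same library, neutrophils had 2.70 times the T-cell level in E2 and 3.64 times in placebo. Monocytes and macrophages pooled had 0.363 times the T-cell level in E2 (0.305 to 0.432) and 1.22 times in placebo (1.05 to 1.43). The pooled placebo value did not hold for each subset: classical monocytes had 0.798 times the T-cell level there (0.606 to 1.04). Since the T-cell level was nearly equal in both libraries, these ratios restate, for monocytes and macrophages, the contrast on which the gene was picked.

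Monocytes and macrophages, the phagocytes that enter tumours from blood or reside in tissue, had 15.3 CPM in the E2 library (362 UMIs in 2336 cells) and 51.2 CPM in the placebo library (472 UMIs in 975 cells). The level was 3.35-fold lower in E2 (2.91 to 3.85). By way of background, 2.68% of the 13114 genes measured in these cells were at least 2-fold lower in E2. Because Qsox1 was picked on this contrast, nothing is read from its place among them.

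Resident-like macrophages, gated on Pf4, Ccl8, Folr2 and related genes, had 18.6 CPM in E2 (52 UMIs in 309 cells) and 117 CPM in placebo (52 UMIs in 63 cells). This was 6.28-fold lower in E2 (4.19 to 9.40). Non-classical monocytes, the patrolling cells marked by Ace and Treml4, had 9.80 CPM in E2 and 47.9 CPM in placebo, 4.89-fold lower (2.81 to 8.82). Apoe C1q macrophages, of which 48.7% also lay in the cluster of that name, had 13.8 CPM in E2 and 53.7 CPM in placebo, 3.90-fold lower (2.65 to 5.74). Classical monocytes, the Ly6c2-bearing cells newly arrived from blood, had 12.9 CPM in E2 and 33.4 CPM in placebo, 2.59-fold lower (1.85 to 3.62). Retnla Ear2 myeloid cells had 20.3 CPM in E2 and 50.8 CPM in placebo, 2.50-fold lower (1.71 to 3.65). Interferon-high cells, of which the placebo library had 34, had 9.98 CPM in E2 and 55.2 CPM in placebo.

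Arg1 Mmp12 macrophages had 17.9 CPM in E2 (35 UMIs in 137 cells) and 55.5 CPM in placebo (98 UMIs in 156 cells), a ratio of E2 to placebo of 0.322 (0.213 to 0.478). This value depends on how the subset was gated. The subset gates were used in 2 versions, and the second was adopted with Qsox1 values in view. Under the first version, which ranked cells by the plain share of markers detected, the Arg1 Mmp12 gate held 24 E2 cells and 47 placebo cells, with 23.9 CPM in E2 (6 UMIs) and 27.1 CPM in placebo (10 UMIs). The ratio of E2 to placebo was then 0.881, with an interval of 0.263 to 2.67. As gated here, it was 0.550 with cells weighted alike and 0.657 after thinning to 2000 UMIs. Under the first version all 7 subsets were still lower in E2, 6 of them at least 2-fold.

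All 7 subsets were at least 2-fold lower in E2 as gated here. Taking the 6 subsets with at least 50 cells in each library, 1 of the 7563 genes measured in all of them, or 0.0132%, was at least 2-fold lower in every one, and that gene was Qsox1. The rule that picked the gene used this contrast, so the count carries no weight of its own. The count also depends on the setting. The Arg1 Mmp12 ratio was 0.881 under the first version of the gates. As gated here, it was 0.550 with cells weighted alike and 0.657 after thinning to 2000 UMIs, both short of 2-fold lower. With the 7 subsets given equal weight in both libraries, the mean level was 14.8 CPM in E2 and 59.1 CPM in placebo.

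**Figure D2:**
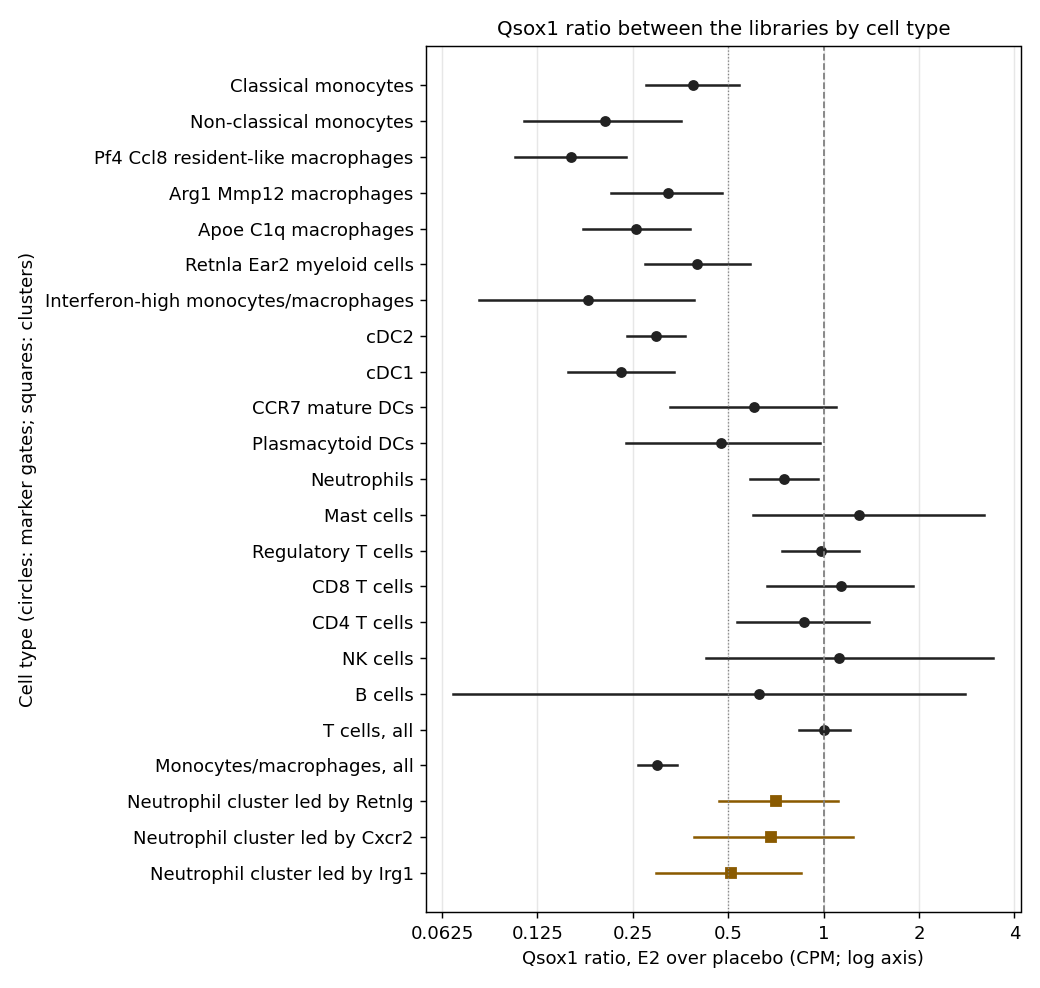
Ratio of the Qsox1 level, E2 over placebo (x axis, log scale, CPM over CPM), by cell type (y axis), with exact conditional-binomial 95% intervals; dashed line, no difference; dotted line, 2-fold lower in E2. Circles are marker gates and squares are neutrophil clusters; monocyte, macrophage, cDC2 and cDC1 points lie left of the dotted line, and T-cell points lie around 1.

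cDC2, which present antigen to CD4 T cells, had 29.9 CPM in E2 (166 UMIs in 383 cells) and 101 CPM in placebo (194 UMIs in 134 cells). The level was 3.38-fold lower in E2 (2.73 to 4.18), where 3.86% of genes were at least 2-fold lower. At least 3 Qsox1 UMIs were found in 2.09% of E2 cDC2 and in 21.6% of placebo cDC2. Of the gated cDC2, 18.8% lay close to the boundary with another class, and 67.7% also lay in the cDC2 cluster. The gated cells showed a median of 46.2% of the monocyte and macrophage markers in E2 and 38.5% in placebo. The gate may therefore not hold the same mix of cells in both libraries.

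The remaining dendritic cells were not named in the choice of the gene. cDC1, the cross-presenting dendritic cells marked by Xcr1 and Clec9a, had 11.7 CPM in E2 (62 UMIs in 314 cells) and 51.1 CPM in placebo (53 UMIs in 67 cells). This was 4.37-fold lower in E2 (2.97 to 6.40). Of the genes measured in cDC1, 4.53% were at least 2-fold lower in E2. CCR7 mature dendritic cells, which migrate towards lymph nodes, had 15.1 CPM in E2 and 25.1 CPM in placebo, 1.66-fold lower with an interval that included no difference (0.912 to 3.04). In the cluster of the same name the ratio of E2 to placebo was 0.474, with an interval below 1 (0.265 to 0.836), and after thinning of the gated cells it was 0.364. Among their genes 3.27% were at least 2-fold lower. Plasmacytoid dendritic cells, with 28 cells in placebo, had 27.8 CPM in E2 and 58.6 CPM in placebo.

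Neutrophils, short-lived granulocytes, had 114 CPM in E2 (219 UMIs in 549 cells) and 153 CPM in placebo (94 UMIs in 258 cells). The level was 1.34-fold lower in E2 (1.04 to 1.71), and 6.48% of genes were at least 2-fold lower in these cells. When only cells with at least 1000 genes were kept, the level was 103 CPM in E2 and 87.4 CPM in placebo, and the ratio of E2 to placebo turned to 1.18. In that setting the placebo neutrophils no longer had the highest level, since placebo cDC2 had 100.6 CPM. The neutrophils formed 3 clusters. The one led by Retnlg and S100a9 had 152 CPM in E2 (250 cells) and 215 CPM in placebo (48 cells). A second, led by Cxcr2 and Csf3r, had 95.1 CPM in E2 (198 cells) and 140 CPM in placebo (61 cells). The third, led by Irg1 and Il1f9, had 69.4 CPM in E2 (93 cells) and 136 CPM in placebo (156 cells), and it was the only one of the 3 whose ratio, 0.509 (0.296 to 0.850), had an interval below 1.

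Mast cells, tissue granulocytes marked by proteases such as Cma1, had 22.6 CPM in E2 (40 UMIs) and 17.5 CPM in placebo (8 UMIs). Their ratio of 1.30 had an interval from 0.598 to 3.21. Of the 11 myeloid types of that size, 10 were lower in E2 and 8 were at least 2-fold lower. Of those 8, 7 were the monocyte and macrophage subsets and cDC2 on which the gene was picked, and the remaining one was cDC1.

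T cells had nearly the same level in both libraries, 42.2 CPM in E2 (210 UMIs in 929 cells) and 41.9 CPM in placebo (258 UMIs in 1142 cells). The ratio was 1.01, with an interval of 0.834 to 1.21, and 3.06% of T-cell genes were at least 2-fold lower. Regulatory T cells had 39.8 CPM in E2 and 40.6 CPM in placebo, and CD8 T cells 49.0 CPM in E2 and 43.2 CPM in placebo. CD4 T cells had 37.3 CPM in E2 and 43.0 CPM in placebo. NK cells had 20.8 CPM in E2 and 18.6 CPM in placebo. Among the 5 lymphoid types, 3 were lower in E2 and 0 were at least 2-fold lower. Whether the myeloid and lymphoid ratios differ was not tested.

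**Figure D3:**
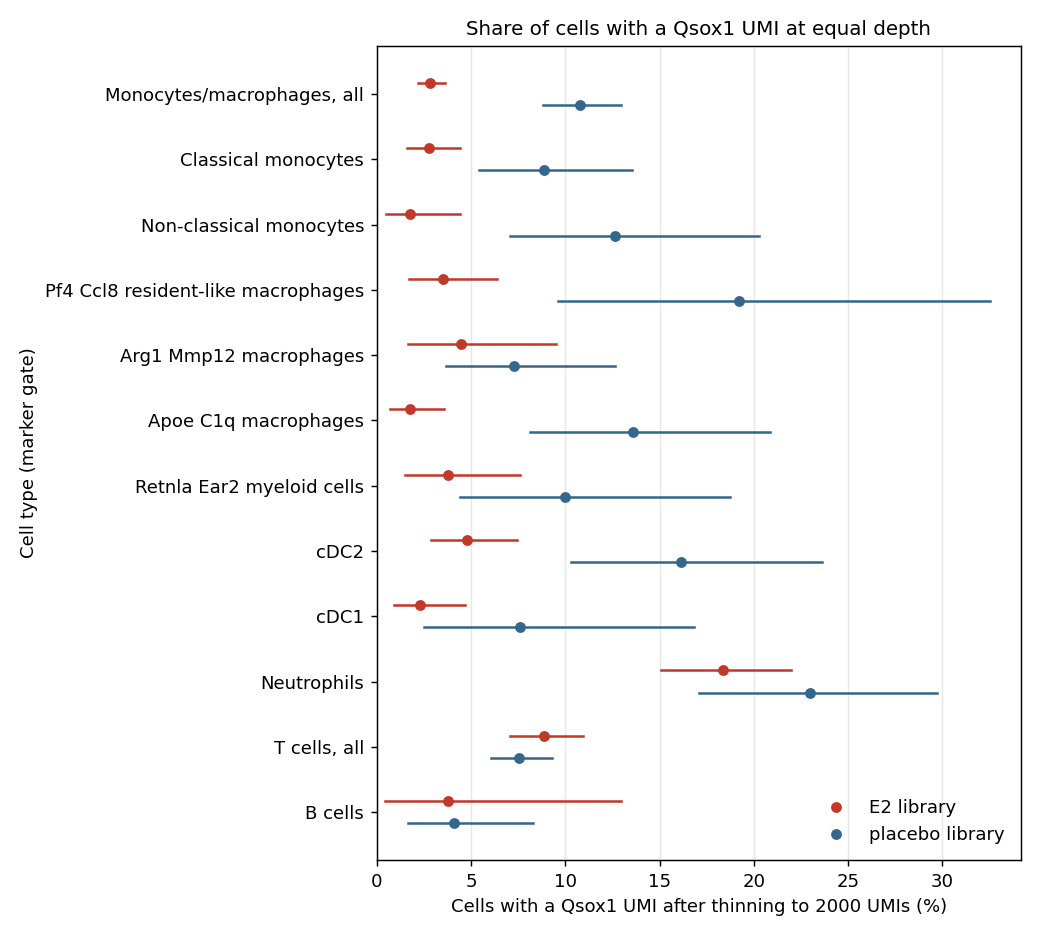
Share of cells with a Qsox1 UMI (x axis, percent) after each cell was thinned to 2000 UMIs, by cell type (y axis), E2 library above placebo library, with exact Clopper-Pearson 95% intervals. Monocytes and macrophages stand at 2.83% in E2 and 10.8% in placebo, and T cells at 8.86% in E2 and 7.57% in placebo.

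Shares of cells were compared at equal depth. Thinning each cell to 2000 UMIs left out 113 E2 and 65 placebo monocytes and macrophages. A Qsox1 UMI was then seen in 2.83% of the E2 ones kept (2.18 to 3.61) and in 10.8% of the placebo ones (8.83 to 13.0). Before thinning, a Qsox1 UMI was seen in 327 of 2336 E2 cells and 329 of 975 placebo cells of these types, and the share was 33.7% in placebo. In cDC2 the thinned shares were 4.77% in E2 and 16.2% in placebo. Neutrophils had 18.3% in E2 and 23.0% in placebo, and their intervals overlapped. Thinning left out 42 of 549 E2 neutrophils and 75 of 258 placebo ones. Before thinning the neutrophil shares were 25.5% in E2 and 25.2% in placebo. In regulatory T cells the thinned share was 9.05% in E2 and 6.68% in placebo, against a CPM level slightly lower in E2, and the share and the level also pointed opposite ways in CD4 T, CD8 T and NK cells, so no order is read from these types. B cells, among the types with the lowest Qsox1 levels, had 3.77% in E2 (0.460 to 13.0) and 4.12% in placebo (1.67 to 8.30). The E2 B-cell value rests on 2 of 53 cells, and its interval is too wide to set a background for free RNA.

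Cells with several Qsox1 UMIs were scarce in E2 monocytes and macrophages, where 0.128% had at least 3, against 2.97% in placebo. The E2 level was also below the placebo level within each of 3 depth bands, cut at 7985 and 10934 UMIs per cell. The shallow band had 14.7 CPM in E2 and 72.5 CPM in placebo, the middle band 13.9 CPM in E2 and 43.6 CPM in placebo, and the deep band 16.3 CPM in E2 and 48.1 CPM in placebo. Cycling monocytes and macrophages had 21.8 CPM in E2 (29 UMIs in 69 cells) and 46.1 CPM in placebo (10 UMIs in 14 cells). Their ratio of E2 to placebo was 0.472, with an interval that included no difference (0.224 to 1.09).

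The sulfhydryl oxidases related to Qsox1 differed among themselves between the libraries. Qsox2, the other quiescin sulfhydryl oxidase, was scarce in monocytes and macrophages, with 3.46 CPM in E2 (82 UMIs) and 2.60 CPM in placebo (24 UMIs). Ero1l, the general endoplasmic reticulum oxidase, had 34.6 CPM in E2 and 75.9 CPM in placebo, 2.19-fold lower in E2. Its relative Ero1lb had 24.6 CPM in E2 and 27.1 CPM in placebo. Gfer, the sulfhydryl oxidase of the mitochondrial intermembrane space, had 32.6 CPM in E2 and 23.3 CPM in placebo.

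Of 24 measured genes of disulfide formation, 9 were higher and 15 lower in E2 monocytes and macrophages, with a median log2 ratio of −0.06 on the log2(CPM + 10) scale. Over all 13114 genes the median was −0.03, with 5584 higher and 7530 lower. Prdx4, a peroxiredoxin of the endoplasmic reticulum, had 70.0 CPM in E2 and 41.2 CPM in placebo. Among 19 endoplasmic reticulum chaperones and stress genes 14 were lower, with a median of −0.10. Hyou1, a chaperone induced by low oxygen, had 34.3 CPM in E2 and 60.7 CPM in placebo.

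Thioredoxin and glutathione genes gave 6 higher and 10 lower of 16, with a median of −0.11. Slc7a11, the cystine importer, had 41.2 CPM in E2 and 96.4 CPM in placebo. Of the 13 laminin and matrix genes measured, 9 were higher and 4 lower, with a median of 0.05. Over all 13114 genes 5584 were higher. Several list members had few UMIs. With at least 100 UMIs required in place of 20, 7 list members were left, 4 higher and 3 lower. At that limit 4060 of 10173 genes were higher and 6113 lower. Sparc, a matrix protein abundant in fibroblasts, had 17.4 CPM in E2 and 4.88 CPM in placebo, and the fibroblast gate held 71 E2 cells and 19 placebo cells. The part of fibroblast RNA in that value was not tested.

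In the hypoxia and glycolysis list 22 of 25 genes were lower in E2 monocytes and macrophages, with a median of −0.26. Over all 13114 genes 7530 were lower. Vegfa was among the 3 list members that were higher, with 179 CPM in E2 and 129 CPM in placebo. T cells went the same way, with 17 of 24 lower (7405 of 11777 over all genes) and a median of −0.23. In neutrophils 17 of 24 were higher in E2 (3091 of 6187 over all genes), with a median of 0.27. In cDC2 13 of 25 were lower (6467 of 10431 over all genes), with a median of −0.05. Egln3, a prolyl hydroxylase induced by low oxygen, had 5.74 CPM in E2 and 24.0 CPM in placebo. Hilpda, a lipid droplet protein, had 32.6 CPM in E2 and 82.9 CPM in placebo. Matrix metalloproteinases and inhibitors gave 9 lower of 12, with Mmp13 at 5.45 CPM in E2 and 45.0 CPM in placebo. Mmp13 is also a gate marker of Arg1 Mmp12 macrophages, which were 137 of 2336 E2 cells and 156 of 975 placebo cells here. The part of this difference in subset mix in the pooled Mmp13 values was not tested. In the same list, Mmp9 had 101 CPM in E2 and 15.7 CPM in placebo. Neutrophils had 1736 CPM of Mmp9 in E2 and 1287 CPM in placebo. A cluster with Ctsk and Mmp9 among its leading genes held 27 E2 cells and 0 placebo cells. The part of neutrophil RNA or of that cluster in the Mmp9 value was not tested.

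**Figure D4:**
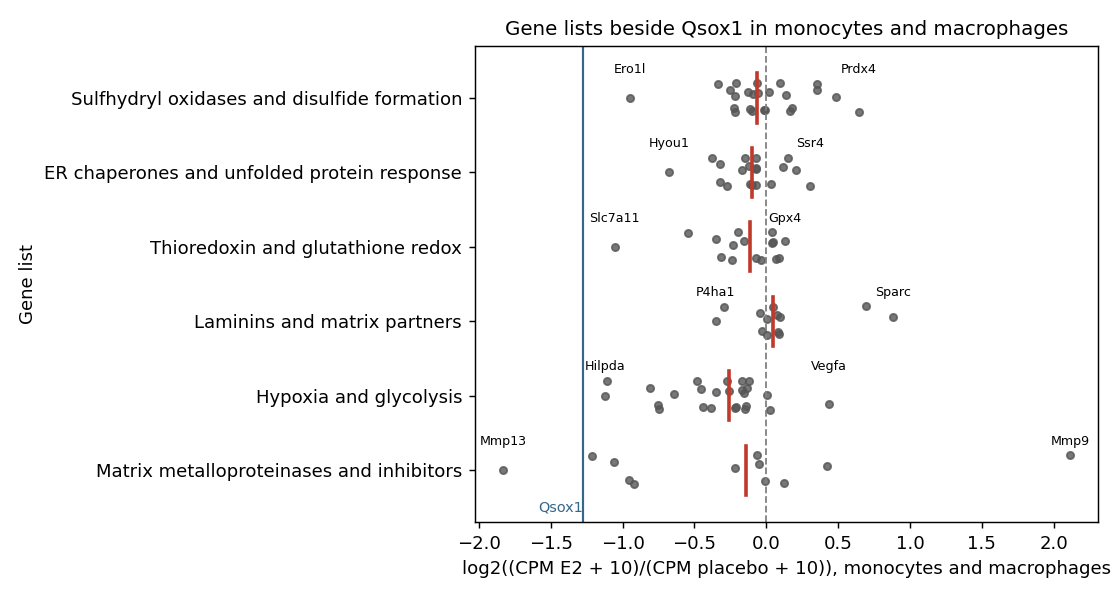
Log2 ratio of each measured list member in monocytes and macrophages, log2((CPM E2 + 10)/(CPM placebo + 10)) on the x axis, by gene list (y axis); red bars are medians, and the lowest and highest members are named. The blue line marks Qsox1 at −1.27 for orientation only, since the gene was picked on this contrast; list medians lie between −0.26 and 0.05.

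Across the 16 types in both libraries (32 points), Klhdc4 had the pattern most like Qsox1 among 9814 genes, with a Pearson r of 0.72 on log2(CPM + 10). Cass4 followed with 0.69, then Lcp1, a leukocyte actin-bundling protein, and R3hdm4, each with 0.66. Ggt5 and Ppp1r3d had 0.65 each, and Cd101 and Cxcr2, the chemokine receptor of neutrophils, 0.64 each. The points share libraries and depth, so these values describe and are not tested. Klhdc4 had 47.4 CPM in E2 and 77.9 CPM in placebo neutrophils, and 17.6 CPM in E2 and 23.4 CPM in placebo monocytes and macrophages. Cxcr2 was 2.75-fold lower in E2 monocytes and macrophages, at 1.77 CPM in E2 and 4.88 CPM in placebo. Both levels are low, against 998 CPM in E2 and 1229 CPM in placebo neutrophils, and the part of neutrophil RNA in them was not tested. On the log2(CPM + 10) scale Cxcr2 stood at 9.98 in E2 and 10.3 in placebo neutrophils. The highest value in any other type was 5.40, in placebo cDC2.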

How the data were processed

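Live CD45+ tumour cells of 1 E2 and 1 placebo library were sequenced with 10x 3′ chemistry. The deposited files hold raw UMI counts per gene and barcode, made with Cell Ranger 3.1.0 on mm10, per the file headers and the submitters' processing notes. No source used here states how barcodes were selected. The libraries held 52628133 UMIs in 5791 barcodes (E2) and 24545595 UMIs in 3505 barcodes (placebo). Of the 47730 features, 47224 matched a table of gene names.

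Barcodes with under 200 genes were removed, then those with the highest doublet scores at 0.8% per 1000 barcodes (268 E2, 98 placebo), since the automatic doublet threshold marked 86 in E2 and 3 in placebo. Counts were summed per cell type and library and divided by the summed UMIs to give CPM. Ratios have exact conditional-binomial intervals, levels exact Poisson intervals and shares exact Clopper-Pearson intervals, and the ratio interval was tested on simulated data. No test between libraries was made. Computation used Python 3.11.15, numpy 2.4.6, scipy 1.17.1, scanpy 1.11.5 and leidenalg 0.10.2. Sequence and motif windows came from RefSeq, GRCm38.p6.

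The gene, the marker lists and the gene lists were chosen with earlier results of these data known. The monocyte and macrophage subset gates were tried in 2 versions: the first ranked lists by the plain share of markers detected, and the second by that share standardised over monocytes and macrophages. The second replaced the first after its cells were compared with clusters, in output that also showed Qsox1 by subset, so the choice was not blind. The limits of the lineage gates and the naming of clusters were likewise set after Qsox1 levels had been seen. The first version is kept as an alternative. Named genes were the 8 most correlated with Qsox1 and up to 5 members of each list with the largest absolute log2 ratio in monocytes and macrophages, with Qsox2 and the Ero1 genes in any case, and the text prints part of them. Alternatives covered Leiden clusters made without Qsox1 (2000 variable genes, 30 components, 15 neighbours, resolution 1), stricter gates, scaling, cell weighting, thinning, doublet and gene limits, and the pseudocount of 10 CPM against 1.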

Additional observations from a re-analysis of the deposited data

Results flagged for a closer look

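In 3 of the larger cell types Qsox1 was not lower in E2, unlike in monocytes and macrophages. Mast cells had a ratio of E2 to placebo of 1.30 (22.6 CPM in E2 and 17.5 CPM in placebo, from 40 UMIs in E2 and 8 in placebo). CD8 T cells had 1.14 (49.0 CPM in E2 and 43.2 CPM in placebo), and NK cells 1.12 (20.8 CPM in E2 and 18.6 CPM in placebo). The interval of each ratio included 1, and the difference from monocytes and macrophages was not tested.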

How the results depend on the processing

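The E2 to placebo ratio of Qsox1 was recomputed in 151 combinations of cell type and alternative, and 143 stayed within the counting interval of the reported ratio. For monocytes and macrophages together, reported at 0.299, the ratio was 0.250 after thinning and 0.250 with the same mix of the 7 subsets. Under the first version of the subset gates it was 0.220, with an equal mix of 5 subsets only. The Arg1 Mmp12 and interferon-high subsets were left out there, having under 30 cells in a library. The highest ratio for monocytes and macrophages together was 0.313 over 13 alternatives. The Arg1 Mmp12 ratio moved most, to 0.881 under the first version of the gates (an alternative added after the data were seen), 0.550 with cells weighted alike and 0.657 after thinning. For Apoe C1q macrophages it was 0.121 after thinning. The neutrophil ratio turned to 1.18 with at least 1000 genes per cell. The ratio in CCR7 mature dendritic cells ran from 0.364 to 0.667 over 11 alternatives. The cDC2 ratio ran from 0.252 to 0.321 and the T-cell ratio from 0.944 to 1.10, each over 11 alternatives. The cause of these shifts was not tested.

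Levels moved with the denominator. Without the 50 genes with most UMIs, monocytes and macrophages had 21.0 CPM in E2 and 68.7 CPM in placebo, and neutrophils 201 CPM in E2 and 248 CPM in placebo. The placebo monocyte and macrophage level was 61.5 CPM with cells weighted alike and 59.3 CPM after thinning, and the placebo neutrophil level was 87.4 CPM with at least 1000 genes. Of the 8 genes most like Qsox1, 4 were shared with a Spearman ranking, 0 with the E2 library alone and 2 with the placebo library alone, so that list depends on the setting. No paired analysis was possible because each group has 1 library.

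Few UMIs limit the small groups: B cells had 2 Qsox1 UMIs in E2 and mast cells 8 in placebo.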
